A study of Mus musculus with 12 samples.

Results

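Somatic support cells are the gonadal cells that become Sertoli cells in the testis, and the comparison described here is that of XY support cells at embryonic day 12.5 (E12.5) with XY support cells at E11.5. Its members were chosen by their labels: 3 pools of sorted XY cells at each day, which are 6 of the 12 arrays of the study, read at 44238 probe sets. All embryos carried the background given as FVB.Cg-Tg(Tyr)3412ARpw together with the transgene Tg(Sry-EGFP)92EI, and the support cells of the testis were isolated by flow cytometry at both days. The XY E12.5 group and the XY E11.5 group therefore differ by label in age alone. The remaining 6 arrays are 3 pools of XX support cells from ovaries of the same strain at E12.5 and 3 at E11.5. The study was concerned with genes that may control gonadal sex determination. Limits of the material are that the reporter is driven by Sry sequences, that the number of gonads per pool and the sorting gate are not given in the labels, and that RNA was amplified in 2 rounds before hybridisation.

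In the mouse, SRY acts briefly in XY support cells and switches on SOX9, after which the cells become Sertoli cells, enclose the germ cells in cords and secrete hormones and growth factors. Before that, the same lineage in both sexes expresses transcription factors of the undifferentiated gonad, such as LHX9, EMX2, WT1, GATA4 and NR5A1. In XX gonads the lineage instead becomes pregranulosa cells under WNT signalling and FOXL2.

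The sex labels were checked first. Xist, the transcript of the inactive X, read 6.56 to 7.87 in XY arrays and 12.8 to 12.95 in XX arrays at its brightest probe set. Eif2s3y on the Y chromosome read 10.85 to 11.36 in XY arrays and 3.68 to 4.0 in XX arrays, and neither went against a label on any array. A dimmer Xist probe set did not separate the sexes, with 4.5 to 5.13 in XY arrays and 5.01 to 13.34 in XX arrays. Signal without a target was taken from the XX arrays at 4 Y-linked probe sets, and spanned 3.33 to 5.17. These 4 were picked because all XY values there lay well above all XX values. The Y-linked probe sets left out read 3.09 to 6.04 in XX arrays, so signal without a target can exceed 5.17. A fold whose lower group mean lay between 3.33 and 5.17 is given as "at least". Folds of dim genes with a lower mean above 5.17 are printed with intervals, but may be lower bounds too. Values are log2 signals per probe set, differences are XY E12.5 minus XY E11.5 in log2 units with their standard error, and a call means a limma p below 0.05 after Benjamini-Hochberg adjustment over all probe sets. Separate litters for the pools are not stated in the labels, and the spread behind each p-value is that among these pools, which may be technical. In bulk cells, fewer cells of a type and less RNA per cell cannot be told apart.

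Between the days 2726 of 44238 probe sets were called (6.16%), 1408 higher in XY E12.5 cells (3.18%) and 1318 lower (2.98%). They belonged to 1917 named genes, and 1017 of the higher and 1055 of the lower calls exceeded 2-fold. The count was 1277 when XY E11.5 pool 3 was left out, 1369 when XY E12.5 pool 3 was and 1660 when XY E12.5 pool 2 was. Over all probe sets the median difference was 0.02, and with each array centred on its median 1660 were called higher and 1172 lower. The XY E12.5 and XY E11.5 values did not overlap at 26.8% of all probe sets, and at 1407 of the 1408 higher and all 1318 lower calls. When each gene was represented by the probe set with the highest mean, 805 of 17996 genes were higher (4.47%) and 457 were lower (2.54%). Counts of listed genes below are on this basis and are to be read beside these shares. The lists were chosen with earlier results of these data known. A list with 1 or 2 calls is not read as a change of its pathway.

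The largest rise was at Ptgds, which encodes prostaglandin D synthase, an enzyme whose product helps maintain Sox9 in the fetal testis. The most changed of its probe sets read 11.08, 12.36 and 11.97 in the XY E12.5 pools, against 6.30, 6.40 and 5.53 in the XY E11.5 pools. The pools of the 2 days lay far apart, and the difference was 5.72 ± 0.34 (52.9-fold, 95% interval 31.4 to 89, adjusted p = 1.608e-05 in limma). The other Ptgds probe set is brighter and gave a smaller difference of 4.04 ± 0.32. Defb19, a beta-defensin gene of Sertoli cells, read 12.12, 12.13 and 12.34 in the XY E12.5 pools, against 6.82, 6.95 and 6.88 in the XY E11.5 pools. Within each day the 3 pools were nearly equal, and the difference was 5.32 ± 0.24 (39.9-fold, 27.4 to 58, adjusted p = 3.793e-06). Dhh, the hedgehog ligand that Sertoli cells send to Leydig cell precursors, read 12.70, 12.76 and 12.78 in the XY E12.5 pools, against 9.76, 8.53 and 7.34 in the XY E11.5 pools. Here the E11.5 pools were spread over more than 2 log2 units while the E12.5 pools were even, and the difference was 4.20 ± 0.45 (18.4-fold, 9.21 to 36.9, adjusted p = 0.0006138). In the opposite direction Lhx9, a homeobox gene needed to form the gonad, read 8.65, 8.63 and 8.37 in the XY E12.5 pools, against 12.05, 12.59 and 12.49 in the XY E11.5 pools. That is a fall with no overlap, by 3.82 ± 0.17 on the log2 scale (14.2-fold lower, 10.9 to 18.4, adjusted p = 3.242e-06), and 3 of the 4 Lhx9 probe sets were called.

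**Figure D1:**
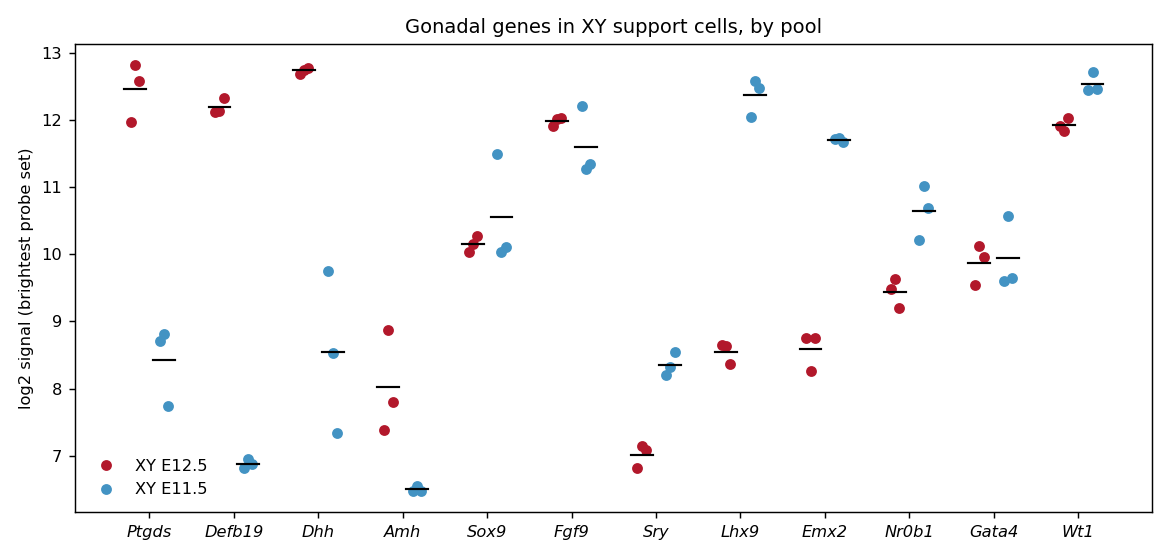
Log2 signal of 12 gonadal genes at their brightest probe set, with XY E12.5 pools (red) left of XY E11.5 pools (blue), 1 point per pool and a bar at each mean. Ptgds, Defb19, Dhh and Amh were higher and Sry, Lhx9, Emx2 and Nr0b1 lower in XY E12.5 pools, while Sox9, Fgf9, Gata4 and Wt1 were not called.

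Proximal promoters are shown for Ptgds, Dhh and Serpina5 among the rises and Lhx9 among the falls, so that the start regions of genes that moved in opposite directions can be read side by side. Each line gives the 250 bases before the annotated start, 5′ to 3′ on the gene's own strand, from RefSeq on GRCm38.p6. The coordinates are chr2:25469750-25469999 on the minus strand for Ptgds, chr15:98898541-98898790 on the minus strand for Dhh, chr12:104100863-104101112 on the plus strand for Serpina5 and chr1:138842445-138842694 on the minus strand for Lhx9. Capitals mark the letters AACAAT, a core bound by SRY and SOX proteins, on either strand.
Ptgds: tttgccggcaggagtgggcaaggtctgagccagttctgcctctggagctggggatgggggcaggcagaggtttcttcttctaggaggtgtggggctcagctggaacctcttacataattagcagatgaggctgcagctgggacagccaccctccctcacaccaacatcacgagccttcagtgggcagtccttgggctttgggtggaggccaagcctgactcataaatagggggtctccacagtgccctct
Dhh: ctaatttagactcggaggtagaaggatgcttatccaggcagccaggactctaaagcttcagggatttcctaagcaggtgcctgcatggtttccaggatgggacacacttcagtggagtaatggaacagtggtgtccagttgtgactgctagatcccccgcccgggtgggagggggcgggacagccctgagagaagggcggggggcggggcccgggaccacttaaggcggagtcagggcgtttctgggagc
Serpina5: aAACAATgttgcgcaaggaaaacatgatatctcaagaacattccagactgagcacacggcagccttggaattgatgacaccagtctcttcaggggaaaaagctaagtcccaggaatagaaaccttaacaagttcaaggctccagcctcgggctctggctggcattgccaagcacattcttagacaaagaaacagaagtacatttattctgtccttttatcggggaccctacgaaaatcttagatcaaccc
Lhx9: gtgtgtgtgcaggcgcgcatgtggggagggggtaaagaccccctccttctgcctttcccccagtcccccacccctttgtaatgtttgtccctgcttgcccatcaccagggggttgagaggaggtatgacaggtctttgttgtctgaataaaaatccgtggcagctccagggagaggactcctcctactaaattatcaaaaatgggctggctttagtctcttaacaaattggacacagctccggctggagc
AACAAT was present in this window in 1 gene, Serpina5, of the 7 with an entry among the 12 genes with the largest rises, and in 0 of the 11 with an entry among the 12 largest falls, against 9.62% of 27025 genes. AAGGTCA, a core bound by NR5A1, was present in 0 of these 7 and 0 of these 11 genes, against 4.04% of all. Both strands were searched, and the Serpina5 match overlaps no AAGGTCA. Serpina5 was chosen for printing with its match known, and a match or its absence here describes these letters only.

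The other genes among the 12 largest rises encode secreted, membrane and signalling proteins. Serpina5, a secreted serine protease inhibitor, read 8.39, 9.48 and 9.06 in XY E12.5 pools, against 4.18, 4.45 and 4.29 in XY E11.5 pools (at least 25.5-fold, adjusted p = 6.28e-06). Rtn4rl1, a Nogo receptor homologue, read 10.22, 10.11 and 9.97 in XY E12.5 pools, against 5.41, 5.21 and 5.33 in XY E11.5 pools (27.6-fold, adjusted p = 2.778e-05). In both genes the E11.5 pools were nearly equal and the means of the days lay more than 4 log2 units apart. Rerg, a RAS-like growth inhibitor (4.83 ± 0.33, at least 28.4-fold), Kazald1, a secreted protein of the insulin-like growth factor binding type (4.74 ± 0.28), and Slc38a5, an amino acid transporter (4.71 ± 0.33), moved in the same way. Other members rose with uneven E11.5 pools. Erbb3, a receptor for neuregulins, read 11.63, 11.92 and 11.83 in XY E12.5 pools, against 7.77, 6.77 and 5.64 in XY E11.5 pools (5.07 ± 0.50, adjusted p = 0.0003661). Nell1, a secreted protein with EGF-like repeats, read 11.94, 11.46 and 12.19 in XY E12.5 pools, against 8.24, 6.45 and 5.19 in XY E11.5 pools (5.24 ± 0.84, adjusted p = 0.006315). Col9a3, a chain of type IX collagen, read 13.14, 13.30 and 13.50 in XY E12.5 pools, against 9.98, 8.88 and 6.35 in XY E11.5 pools at its most changed probe set (4.91 ± 0.75, adjusted p = 0.004698). In all of these, pool 1 was the highest and pool 3 the lowest of the E11.5 pools. Tmcc3 (5.13 ± 0.86) was lowest in E11.5 pool 1 and was called at 2 of 5 probe sets. Erbb3 and Nell1 were each called at 1 of 2, and the other Erbb3 probe set gave 0.25. Afap1l2, a gene for an actin-associated adaptor protein, had the widest E11.5 spread, from 5.03 to 8.90, and its call at the brighter probe set (5.34 ± 1.11, adjusted p = 0.02085) ended without any one of the 3 XY E12.5 pools, XY E11.5 pool 2 or XY E11.5 pool 3. Its dimmer probe set gave 2.74 with an adjusted p of 6.482e-05.

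**Figure D2:**
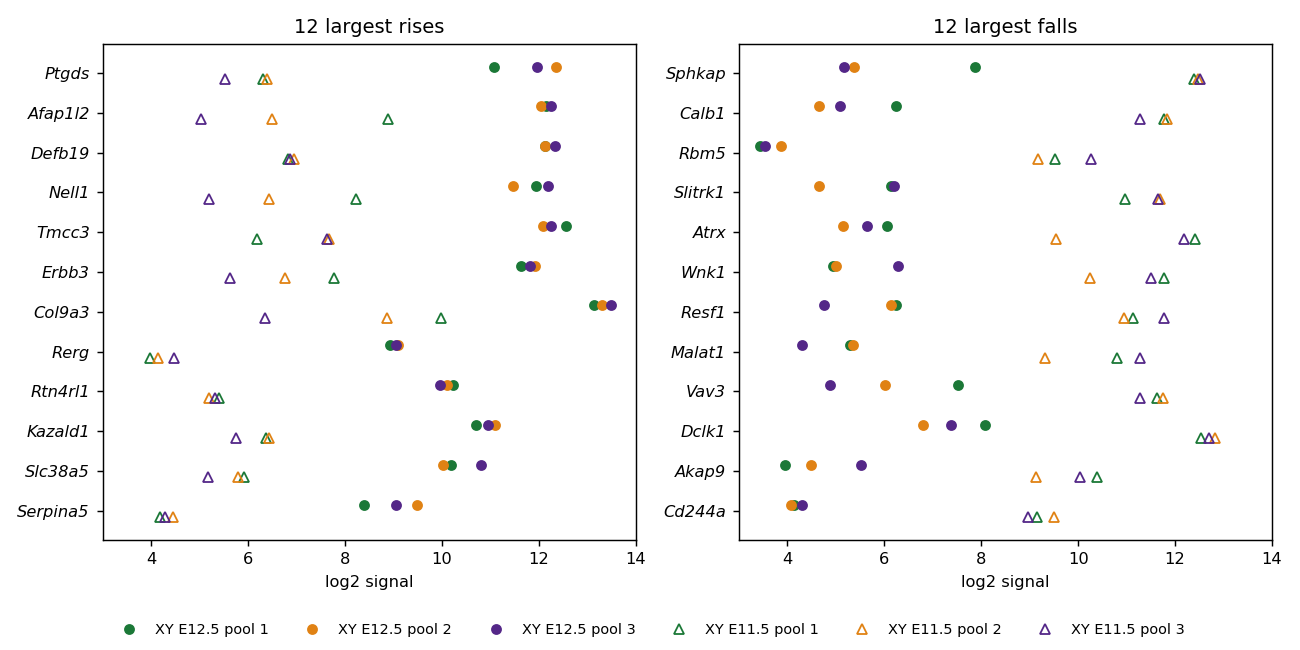
Log2 signal of the 12 largest rises (left) and 12 largest falls (right), with filled circles for XY E12.5 pools above open triangles for XY E11.5 pools and 1 colour per pool number. Only genes whose days do not overlap were eligible, which holds at 26.8% of all probe sets. E11.5 pools of Afap1l2, Nell1, Erbb3 and Col9a3 spread widely. E11.5 pool 2 is the lowest of its group in Rbm5, Atrx, Wnk1, Resf1, Malat1 and Akap9.

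Most measured genes of the Sertoli differentiation list were called higher. That list was chosen with earlier results of these data known and holds Ptgds, Defb19, Dhh and Col9a3, named above. Its count is a description and no independent support. Of 38 listed genes 34 had a probe set, of which 21 were higher and 0 lower (805 of 17996 genes were higher overall), with a median difference of 1.55 beside 0.06 over all genes. The called genes were Sox8, Sox10, Amh, Dhh, Ptgds, Defb19, Cst9, Aard, Mro, Tesc, Col9a3, Vnn1, Cldn11, Gdnf, Hsd17b1, Hsd17b3, Clu, Tmem184a, Mybl1, Shbg and Gatm. Sox8, a partner of Sox9, read 8.36, 8.17 and 8.42 in XY E12.5 pools, against 6.60, 5.40 and 5.10 in XY E11.5 pools (2.62 ± 0.35, adjusted p = 0.002187). Mybl1, a gene for a MYB-family transcription factor, rose by 2.59 ± 0.24 (at least 6.04-fold), and Cst9, a cystatin gene of the testis, by 1.94 ± 0.20. Amh, the hormone that removes the Müllerian ducts in males, read 7.38, 8.87 and 7.80 in XY E12.5 pools, against 6.48, 6.55 and 6.48 in XY E11.5 pools. All 3 E11.5 values were near equal and the E12.5 values uneven (1.52 ± 0.30, adjusted p = 0.017), and the call ended without XY E11.5 pool 3. When any 1 array was left out, 18 to 24 genes of the list were called higher, and the mean over its genes was 10.49, 10.50 and 10.62 in the XY E12.5 pools, against 9.16, 8.82 and 8.38 in the XY E11.5 pools.

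The genes that start this programme did not follow it. Sry read 6.82, 7.14 and 7.09 in XY E12.5 pools, against 8.20, 8.33 and 8.55 in XY E11.5 pools at its brightest probe set. Every E12.5 value was below every E11.5 value, and Sry fell by 1.34 ± 0.16 (2.54-fold lower, adjusted p = 0.001082), with its other probe set also called (-0.72). Whether the Sry probe sets also detect the Sry-EGFP transcript was not tested. Sox9, the direct target of SRY, read 10.04, 10.16 and 10.28 in XY E12.5 pools, against 11.50, 10.04 and 10.11 in XY E11.5 pools. Its groups overlapped, pool 1 being the high one at E11.5, and none of its 3 probe sets was called (-0.39 ± 0.38 at the brightest, 95% interval -1.24 to 0.45). Fgf9, a ligand that sustains Sox9, overlapped likewise (0.38 ± 0.59, adjusted p = 0.8003), as did Dmrt1, a transcription factor gene that keeps Sertoli cells male in later life (0.08 ± 0.33, adjusted p = 0.936). Of 17 measured genes on the list of Sry and its activators 1 was higher and 3 lower, with a median of 0.05. Besides Sry, the fallers were Kdm3a, a histone H3 lysine demethylase gene needed for Sry activation in mice (-1.04 ± 0.16, adjusted p = 0.005086), and Gadd45g, also needed for timely Sry expression (-1.36 ± 0.30, adjusted p = 0.02697). The riser was Map2k6, a MAP kinase kinase gene of the same pathway (1.47 ± 0.34, adjusted p = 0.0331). The Gadd45g call ended without any one of XY E12.5 pools 1 and 3 and XY E11.5 pools 1 and 3, and the Map2k6 call without any one of XY E12.5 pools 2 and 3 and XY E11.5 pools 1 and 3.

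Regulators of the undifferentiated gonad split. Of 16 measured genes 5 were lower and 0 higher, with a median of -0.23, and 2.54% of all genes were lower. Lhx9 is given above. Emx2, a homeobox gene without which the gonad does not form, read 8.75, 8.26 and 8.76 in XY E12.5 pools, against 11.72, 11.73 and 11.67 in XY E11.5 pools. The E11.5 values were almost identical and Emx2 fell by 3.12 ± 0.25 (8.67-fold lower, 5.93 to 12.7, adjusted p = 9.67e-05). Gata6 fell by 1.52 ± 0.23 and Nr2f2, a nuclear receptor gene also found in interstitial cells, by 2.20 ± 0.38. Nr0b1, a nuclear receptor gene whose dose affects testis formation, read 9.48, 9.63 and 9.20 in XY E12.5 pools, against 10.22, 11.02 and 10.69 in XY E11.5 pools (-1.20 ± 0.25, adjusted p = 0.02058). Its call ended without any one of XY E12.5 pools 1 and 3 and XY E11.5 pools 2 and 3. Gata4 (-0.07 ± 0.33), Nr5a1 (-0.15 ± 0.30) and Wt1 (-0.62 ± 0.21, adjusted p = 0.1286), factors that both progenitors and Sertoli cells use, were not called.

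Several genes of pregranulosa cells fell in XY cells. Of 23 measured genes 8 were lower and 0 higher, and the median was -1.20, beside 2.54% of all genes lower. The 8 were Fst, Rspo1, Bmp2, Lef1, Msx1, Lypd6, Nr0b1 and Lhx9, the last being also a gene of the early gonad of both sexes. Fst, which encodes the activin-binding protein follistatin, read 6.25, 5.94 and 6.47 in XY E12.5 pools, against 9.38, 9.06 and 9.71 in XY E11.5 pools. The days were separated by more than 2 log2 units (-3.16 ± 0.49, adjusted p = 0.004886), and its other probe set was not called (-1.65, adjusted p = 0.1017). Msx1, a homeobox gene, fell by 2.40 ± 0.38. Rspo1, the secreted WNT potentiator of the ovary, read 6.35, 6.98 and 6.09 in XY E12.5 pools, against 7.23, 8.35 and 7.74 in XY E11.5 pools (-1.30 ± 0.31, adjusted p = 0.03884). Foxl2, the granulosa transcription factor, read 8.01, 7.39 and 7.96 in XY E12.5 pools, against 7.69, 7.77 and 7.35 in XY E11.5 pools, so its days overlapped (0.19 ± 0.28, adjusted p = 0.7948). Wnt4 was not called at its brightest probe set (-1.13 ± 0.35, adjusted p = 0.09453) and was called at the dimmer one (-1.63, adjusted p = 0.04696). When 1 array was left out, 4 to 9 genes of the list were called lower, with 4 without XY E11.5 pool 3, where the calls of Bmp2 and Lef1 ended. The Rspo1 call ended there too, under the omission of XY E11.5 pool 2 or of XY E12.5 pool 1 or 3, and under that of any of 4 XX pools.

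Among signalling pathways, Notch had calls in 1 direction only. Over all genes 4.47% were higher and 2.54% lower. Of 19 measured genes 5 were higher and 0 lower (median 0.47): the receptor gene Notch2, the ligand gene Jag1 and the target genes Hes5, Heyl and Hey2. Jag1 read 9.87, 9.67 and 9.94 in XY E12.5 pools, against 6.55, 6.10 and 5.78 in XY E11.5 pools (12.9-fold, 6.25 to 26.5, adjusted p = 0.001729). Hes5, a transcriptional repressor gene, read 9.45, 9.02 and 9.85 in XY E12.5 pools, against 6.83, 6.44 and 6.78 in XY E11.5 pools (6.76-fold, 4.88 to 9.35, adjusted p = 8.028e-05). Neither gene's days overlapped at these probe sets, and Hey2 was at least 4.29-fold higher. Hes5 was called at 1 of 2 probe sets and Jag1 at 2 of 3. The count of 5 became 3 without XY E12.5 pool 3. In the hedgehog pathway, 15 measured genes had 2 higher and 1 lower. Besides Dhh, Ptch1, a receptor that the pathway itself induces, read 13.09, 12.69 and 12.77 in XY E12.5 pools, against 11.45, 10.90 and 10.58 in XY E11.5 pools (1.88 ± 0.30, adjusted p = 0.005825). Gas1, a coreceptor gene, fell by 1.67 ± 0.22 and was called at 2 of 3 probe sets.

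Of 22 measured FGF genes, 2 were higher and 1 lower, beside 4.47% of all genes higher and 2.54% lower. Small counts in this paragraph name genes and are not read as a change of a pathway. Spry4, a feedback inhibitor of FGF signalling, rose by 2.13 ± 0.46 (adjusted p = 0.02365) and Il17rd, another inhibitor, by 1.40 ± 0.31 (adjusted p = 0.02759), whereas the receptor gene Fgfr2 read 9.01, 8.48 and 8.76 in XY E12.5 pools, against 10.42, 10.05 and 10.58 in XY E11.5 pools (-1.60 ± 0.19, adjusted p = 0.001307). Both rises lost their call when pool 3 of either day was left out, and under at least 2 further omissions of an XY array. Among 32 genes of the TGF-beta superfamily 4 were higher (Amh, Acvr1b, Bmp7 and Smad7) and 2 lower (Fst and Bmp2), and these counts were 1 and 1 without XY E11.5 pool 3. WNT ligands, receptors and antagonists had 1 higher and 3 lower of 34. Sfrp4, a secreted antagonist, rose by 1.51 ± 0.20, and Rspo1, Lef1 and Wnt5b were the fallers, 0 of them without XY E12.5 pool 1, XY E12.5 pool 3 or XY E11.5 pool 3. Of 18 other growth factor genes Gdnf, a ligand for spermatogonia in later life, was higher (3.51 ± 0.57) and Igf1 and Pdgfc were lower. Pdgfc, a platelet-derived growth factor, read 10.35, 9.44 and 9.84 in XY E12.5 pools, against 12.36, 12.27 and 11.95 in XY E11.5 pools (-2.31 ± 0.24, adjusted p = 0.0005601). Gdnf at E11.5 again ran from pool 1 at the top to pool 3 at the bottom (9.68, 8.44 and 6.77). Retinoic acid genes had 1 lower of 14, the retinaldehyde reductase gene Dhrs3, and prostaglandin genes 1 higher of 14, which was Ptgds. Dhrs3 read 8.17, 7.99 and 8.10 in XY E12.5 pools, against 9.64, 10.48 and 10.29 in XY E11.5 pools (-2.05 ± 0.20, adjusted p = 0.0004028).

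Some genes for secreted proteins, matrix and junctions were called, most of these higher, beside 4.47% of all genes higher and 2.54% lower. Of 16 measured secreted protein and protease inhibitor genes 7 were higher and 0 lower: Defb19, Cst3, Cst9, Serpina5, Clu, Spint2 and Timp3. Collagen and basement membrane genes had 6 higher of 20, namely Col9a2, Col9a3, Col14a1, Col18a1, Vcan and Sparc, and 4 without XY E12.5 pool 3 or XY E11.5 pool 3. Col9a2, a further chain of type IX collagen, read 8.79, 8.30 and 8.57 in XY E12.5 pools, against 6.05, 6.58 and 5.97 in XY E11.5 pools (5.12-fold, 3.68 to 7.13, adjusted p = 0.0002364). Col18a1, a basement membrane collagen, rose by 2.22 ± 0.31 at its brightest probe set and was called at both. Junction and polarity genes had 5 higher and 2 lower of 28. Gjb2, which encodes the gap junction protein connexin 26, read 11.27, 11.55 and 11.21 in XY E12.5 pools, against 7.31, 7.61 and 6.80 in XY E11.5 pools (17.2-fold, 12.2 to 24.3, adjusted p = 9.88e-06). Cldn11, a claudin of Sertoli cell tight junctions, read 10.89, 10.20 and 11.25 in XY E12.5 pools, against 6.84, 8.59 and 7.21 in XY E11.5 pools (9.42-fold, 4.42 to 20.1, adjusted p = 0.004587). F11r, a junctional adhesion molecule gene, fell by 1.07 ± 0.19. The calls of Krt18 (higher) and Pard3 (lower) each ended under 9 of the 12 omissions of 1 array, and the number higher was 3 without XY E12.5 pool 2 or 3.

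Glutathione and antioxidant enzymes had 6 higher and 0 lower of 23 (Gstm1, Gstm2, Gstm6, Gstm7, Gstt1 and Gpx3), and 3 higher without XY E12.5 pool 2 or 3. Beside these and the counts that follow, 4.47% of all genes were higher and 2.54% lower. Gstm6, a glutathione S-transferase gene, read 9.48, 10.37 and 10.49 in XY E12.5 pools, against 6.45, 6.77 and 6.03 in XY E11.5 pools (12.9-fold, 8.58 to 19.6, adjusted p = 5.85e-05). The Gstm genes are near copies of each other, and cross-hybridisation between their probe sets was not tested. Gpx3, a secreted glutathione peroxidase gene, rose by 2.21 ± 0.30. Cholesterol genes had 3 higher and 1 lower of 20, and Dhcr7, which catalyses the last step of cholesterol synthesis, rose by 1.64 ± 0.21. The lower one, Hmgcs1 (-0.41), lost its call under 8 omissions of 1 array. Of 23 immediate early genes Egr1 (1.84 ± 0.31) and Junb (1.54 ± 0.22) were higher. Of 26 glycolysis and hypoxia genes 0 were higher and 3 lower, among them Ndrg1 and Adm. Ndrg1, a gene induced by low oxygen, read 9.04, 8.62 and 8.60 in XY E12.5 pools, against 11.37, 11.41 and 11.50 in XY E11.5 pools (-2.67 ± 0.27, adjusted p = 0.0004063). Adm, which encodes the vasodilator adrenomedullin, fell by 2.85 ± 0.32, and its 2 probe sets were both called. Among 20 serine and one-carbon genes, Slc1a4, an exchanger for serine and alanine, read 8.59, 8.42 and 9.36 in XY E12.5 pools, against 12.15, 12.36 and 12.75 in XY E11.5 pools (12.4-fold lower, 8.5 to 18, adjusted p = 3.888e-05). All 3 Slc1a4 probe sets were called lower. Mtr, methionine synthase, fell by 1.69 ± 0.21, and Gatm was the 1 member higher, a call that ended under 4 omissions of 1 array, those of XY E11.5 pool 3 and each XY E12.5 pool. Oxidative phosphorylation genes had 1 called of 22 (Cycs, higher), splicing factors 1 of 28 (Luc7l2, higher) and ribosomal proteins 0 of 10 (medians 0.09, 0.06 and 0.03). The Cycs and Luc7l2 calls each ended under 4 or more omissions of 1 array, XY E11.5 pool 3 among them.

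Imprinted genes had 6 lower and 0 higher of 22, beside 2.54% of all genes lower: Zim1, Cdkn1c, Slc38a4, Peg3, Mest and Usp29. Zim1, a zinc finger gene beside Peg3, read 5.52, 5.47 and 5.69 in XY E12.5 pools, against 9.18, 9.58 and 9.44 in XY E11.5 pools (14.3-fold lower, 9.96 to 20.5, adjusted p = 1.941e-05). Cdkn1c, an inhibitor of cyclin-dependent kinases, read 9.94, 10.38 and 10.61 in XY E12.5 pools, against 12.59, 12.68 and 12.85 in XY E11.5 pools (5.27-fold lower, 3.77 to 7.37, adjusted p = 0.0002364). Both were separated between the days by more than any difference between pools of a day. The count of 6 became 4 without XY E11.5 pool 2 or without XY E12.5 pool 3. Among 12 cell cycle inhibitor genes Rb1 was higher (1.59 ± 0.28) and Cdkn1c lower, while Cdkn1b was not called (0.12 ± 0.20, adjusted p = 0.8209).

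Mitotic genes had higher values in XY E12.5 pools, but few were called. All 28 measured genes had a positive difference, with a median of 1.41 beside 0.06 over all genes. Of these 2 passed the test, beside 4.47% of all genes higher. They were the kinase genes Aurka (1.65 ± 0.33, adjusted p = 0.01695) and Nek2 (2.19 ± 0.45, adjusted p = 0.01857). Aurka was called at 1 of 2 probe sets and Nek2 at 1 of 4. The mean over the 28 genes was 10.03, 9.99 and 10.14 in the XY E12.5 pools, against 8.64, 8.42 and 9.23 in the XY E11.5 pools. The E11.5 pools lay up to 0.8 log2 units apart, and the number called was 0 to 6 when 1 array was left out, with 0 without XY E11.5 pool 1 or XY E12.5 pool 3. DNA replication genes had 0 called of 31 (median 0.52).

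The falls held some genes better known from neurons. Neuronal-type genes had 5 lower (Slitrk1, Dclk1, Tph2, Gabra4 and Sphkap) and 1 higher (Pak3) of 33, and under every omission of 1 array 5 were called lower. The median over the 33 was -0.04, with 13 positive, and 2.54% of all genes were called lower. Slitrk1, a synaptic adhesion protein gene, read 6.13, 4.66 and 6.20 in XY E12.5 pools, against 10.97, 11.70 and 11.64 in XY E11.5 pools (54.7-fold lower, 25.3 to 118, adjusted p = 0.0001808). Sphkap, which binds sphingosine kinase and protein kinase A, read 7.87, 5.37 and 5.16 in XY E12.5 pools, against 12.40, 12.46 and 12.52 in XY E11.5 pools (80.3-fold lower, 33 to 196, adjusted p = 0.0002364). At E11.5 Sphkap was nearly equal in the 3 pools, and at E12.5 it was highest in pool 1. Dclk1, a doublecortin-like kinase gene, read 8.09, 6.79 and 7.37 in XY E12.5 pools, against 12.54, 12.83 and 12.71 in XY E11.5 pools (38.7-fold lower, 25.7 to 58.3, adjusted p = 6.28e-06). Calb1, a calcium-binding protein gene (-6.30 ± 0.56), Vav3, a guanine nucleotide exchange factor gene (-5.42 ± 0.53), and Cd244a, a receptor gene of natural killer cells (-5.04 ± 0.48, at least 32.9-fold), fell on the same scale. Guidance and migration genes had 6 lower and 2 higher of 29. Sema3a, a secreted repellent, read 7.85, 7.73 and 8.52 in XY E12.5 pools, against 10.02, 10.43 and 9.92 in XY E11.5 pools (-2.09 ± 0.24, adjusted p = 0.0009499). Its receptor genes Nrp1 (-2.44 ± 0.47) and Plxna2 (-2.60 ± 0.51) fell too at their brightest probe sets. Nrp1 was called at 1 of 4 probe sets, Plxna2 at 2 of 4 and Sema3a at 1 of 3. The Nrp1 and Plxna2 calls each ended without XY E12.5 pool 1, among others, where 2 guidance genes were called lower. The Pak3 call ended without XY E12.5 pool 1 or 3, and that of Sema5a, 1 of the 2 guidance genes higher, under 10 omissions of 1 array.

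The other probe sets of each gene that fell were then read. Among 840 genes with a called fall, 166 had 1 probe set and 674 had several. Of the 674, all probe sets were called lower in 49 genes, more than 1 but not all in 121 and exactly 1 in 504. Rises were split in a like way: of 738 rising genes with several probe sets these counts were 71, 82 and 585. Calls at a single probe set are thus no trait of the falls alone. The 1341 other probe sets of the rising genes had a median difference of 0.14, and 35.0% were negative. The brightest probe set was called lower in 54.4% of the 840 genes, whereas among 1095 genes with a called rise it was called higher in 73.5%. The 1533 other probe sets of the falling genes had a median difference of -0.15, and 64.6% of them were negative beside 47.5% of all probe sets. In the 504 genes with exactly 1 called, the called probe set had a median of -1.57, the others one of -0.11, and the brightest was the called one in 33.9%. The same called probe sets had a median of -0.75 between the days in XX cells, against 0.01 for genes with 1 probe set. Many falls named above were likewise called at only part of the gene's probe sets. Fgfr2 and Acta2 were called at 1 of 3, Gata6 at 2 of 3, Nr2f2 at 2 of 6 and Ndrg1 at 2 of 5. Mtr, Msx1, Igfbp5, F11r, Lef1, Wnt5b and Slc38a4 were called at 1 of 2.

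Dclk1 was called lower at 6 of 9 probe sets and Vav3 at 2 of 3, including the brightest of each, and Sphkap at both. Calb1 was called at 2 of 4, Cd244a at the brighter of 2, and Slitrk1 has 1 probe set. Resf1 was called at all 4, by -5.57 ± 0.58 at the most changed and -1.57 at the brightest. The remaining 5 of the 12 largest falls gave smaller changes at the brightest probe set of the gene. Atrx, a chromatin remodeller gene, read 6.06, 5.14 and 5.64 in XY E12.5 pools, against 12.41, 9.54 and 12.19 in XY E11.5 pools at the named probe set (-5.77 ± 1.03). Its brightest probe set was not called (0.31, adjusted p = 0.5488), and 3 of 7 were called lower. Rbm5, an RNA-binding protein gene, gave -6.04 ± 0.93 (at least 65.7-fold) at one probe set and 0.06 at the brightest. Wnk1, a kinase gene of ion transport, gave -5.77 ± 1.01 and 0.04. Akap9, a centrosomal anchoring protein gene, gave -5.20 ± 0.64 (at least 36.8-fold) and 0.16. Rbm5 was called lower at 2 of 5 probe sets, Wnk1 at 1 of 3 and Akap9 at 3 of 6. Malat1, a nuclear long noncoding RNA, gave -5.48 ± 0.73 (at least 44.8-fold) and -0.43, with 3 of its 7 probe sets called. At the named probe sets of Atrx, Rbm5, Wnk1, Akap9, Malat1 and Resf1 the XX cells changed by -4.84, -3.65, -4.17, -4.91, -4.73 and -3.32 between the same days, and no difference between the sexes was called. XY E11.5 pool 2 was the lowest of its group at all 6.

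**Figure D3:**
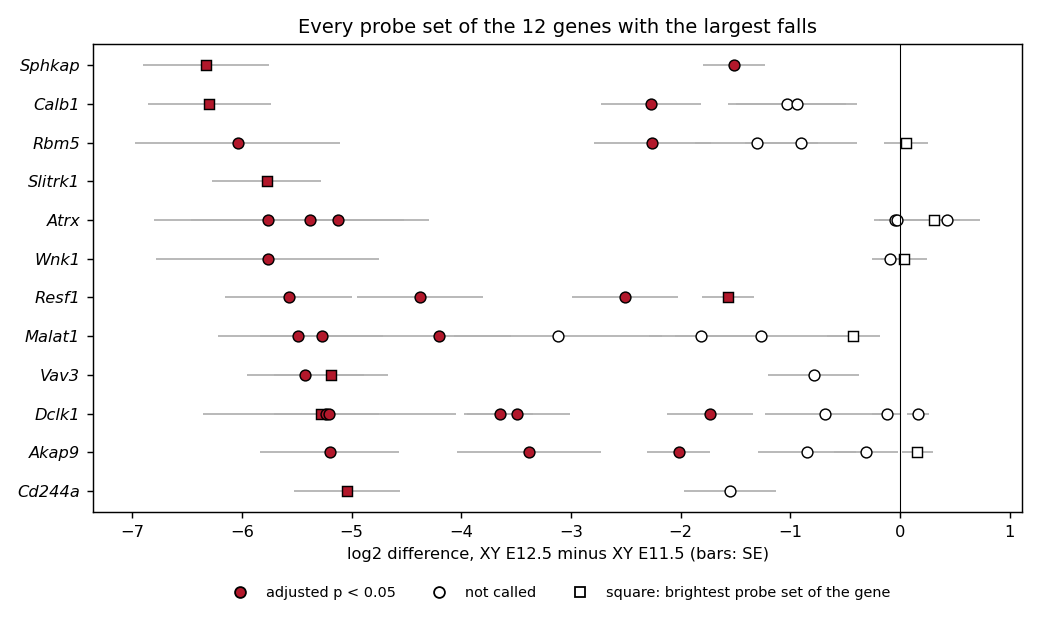
Log2 difference with its standard error at every probe set of the 12 genes with the largest falls, filled where called and square at the brightest probe set of a gene. The brightest probe set lies with the fall in Sphkap, Calb1, Slitrk1, Vav3, Dclk1 and Cd244a and near 0 in Rbm5, Atrx, Wnk1, Malat1 and Akap9.

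Called probe sets of opposite direction occurred in 17 genes with a symbol other than a clone name. Golm2, a Golgi membrane protein gene, read 10.94, 10.78 and 10.88 in XY E12.5 pools, against 10.21, 9.89 and 10.01 in XY E11.5 pools at its brighter probe set (0.83 ± 0.11). At the other it read 4.56, 5.22 and 4.50 in XY E12.5 pools, against 8.01, 8.01 and 8.58 in XY E11.5 pools (-3.44 ± 0.52, at least 10.9-fold lower). Diaph2, a formin gene (2.04 at the brighter probe set and -2.64 at the other), and Hook1, a microtubule linker gene (2.13 and -2.35), were likewise called higher at the brighter one. Those 2 rises lost their calls under 5 and 8 omissions of 1 array. Prrc2c and Tgs1 each had 2 probe sets called lower, 1 called higher and a brightest one that was not called. Their rises lost the call under 4 omissions for Prrc2c and 5 for Tgs1. The remaining genes named for both directions were Luc7l3, Phf20l1, Tbc1d20, Wdr26 and Xrn2. Across the 17 the transcripts that each probe set detects were not examined here.

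In XX cells 1378 probe sets were called between the days (3.11%). The day change differed between the sexes at 774 of 44238 probe sets (1.75%) in the test of the difference itself, and at 282 of the 1408 probe sets higher in XY (20.0%) and 260 of the 1318 lower (19.7%). That test and the XY day change share the XY arrays. The 774 became 480 when XY E12.5 pool 3 was left out, and 1273, 442 and 501 when XY E11.5 pools 1, 2 and 3 were left out in turn. Omitting XX E12.5 pool 2 gave 489 and omitting XX E12.5 pool 3 gave 403. The largest differences among the named genes were at Slitrk1 (-5.77 ± 0.50 in XY and 0.57 in XX, difference -6.34 ± 0.71) and Pak3 (3.43 ± 0.71 in XY and -2.50 in XX, difference 5.93 ± 1.01), the Pak3 difference losing its call when XX E12.5 pool 3 was left out. Ptgds (5.10 ± 0.48), Defb19 (4.39 ± 0.34), Dhh (4.24 ± 0.64), Gjb2 (4.07 ± 0.32) and Serpina5 (4.66 ± 0.33) rose more in XY than in XX. Lhx9 changed by -3.82 in XY and 0.04 in XX at its brightest probe set, and Emx2 by -3.12 in XY and -0.11 in XX, and both differences were called. A dimmer Lhx9 probe set was called lower in both sexes, by -3.40 in XY and -1.99 in XX (adjusted p = 0.004464 in XX), and the difference was not called there (-1.41 ± 0.33, adjusted p = 0.06522), nor at the remaining 2 Lhx9 probe sets (-0.52 and -3.14). Fst (-3.16 in XY and 1.91 in XX), Rspo1 (-1.30 and 2.33) and Sema3a (-2.09 and 1.93) had opposite signs, and the differences were called. Foxl2 was not called in XY, and its day change still differed from the 2.89 of XX cells (difference -2.71 ± 0.40, adjusted p = 0.008709). The pregranulosa list held 12 genes with a called difference of 23, the Sertoli list 12 of 34 and the mitotic list 4 of 28, beside 2.83% of all genes. The XX medians of these lists were 0.97, -0.02 and -1.23.

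**Figure D4:**
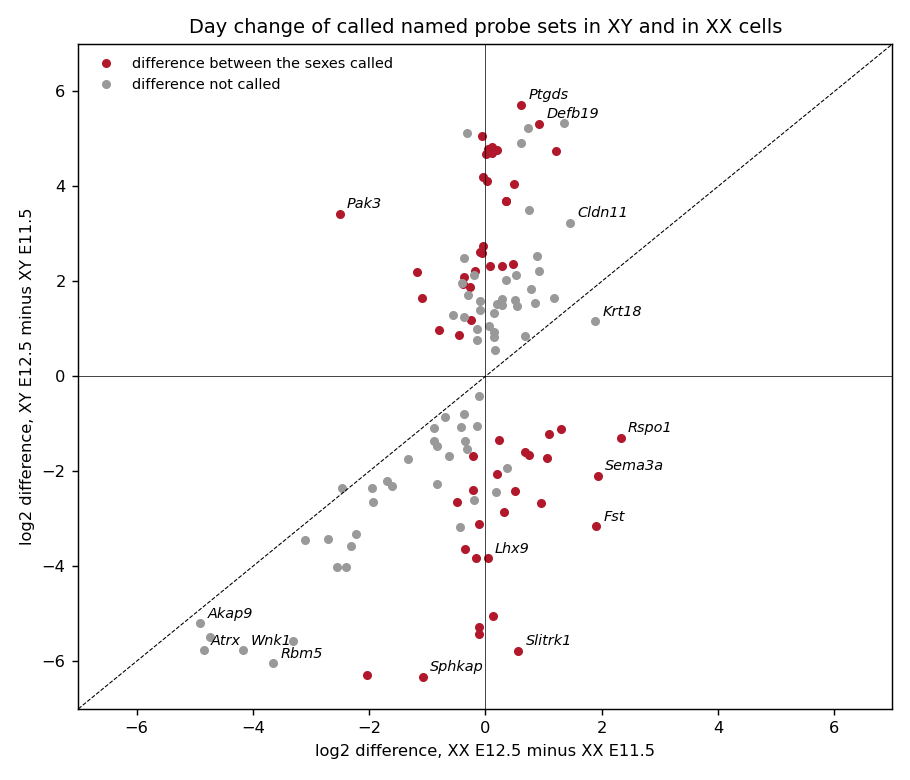
Log2 day change of the called named probe sets in XY cells (vertical, XY E12.5 minus XY E11.5) against that in XX cells (horizontal, XX E12.5 minus XX E11.5), red where the difference between the sexes was called. Ptgds (0.62 in XX) and Defb19 (0.93 in XX) lie at the top, Fst, Rspo1 and Sema3a lie at lower right, and Akap9, Atrx, Wnk1 and Rbm5 lie at lower left, negative in both sexes, with a dashed line marking equal change.

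Markers of other cell types gave few calls. At the shares of all genes (4.47% higher, 2.54% lower), few are due in lists of this size. Germ cell (16 measured), endothelial (19), erythroid (10) and mesonephric (11) markers had 0 called, with medians of 0.25, 0.38, 0.10 and -0.17. The unadjusted limma p was under 0.05 at 8918 of all probe sets. Macrophage markers had 1 called of 16, the lysosomal gene Cd68 (1.33 ± 0.34, adjusted p = 0.04923), but 15 of 16 were positive with a median of 0.90. Their mean was 7.27, 7.38 and 7.49 in the XY E12.5 pools, against 5.97, 6.56 and 6.63 in the XY E11.5 pools. The part of this shift in the other results was not tested. Steroidogenic markers had 1 higher and 1 lower of 8. Hsd17b1, also on the Sertoli list, rose by 2.32 ± 0.28. Cyp11a1, the first enzyme of steroid synthesis, read 7.64, 7.85 and 6.76 in XY E12.5 pools, against 10.91, 11.75 and 11.62 in XY E11.5 pools (16.1-fold lower, 8.58 to 30.1, adjusted p = 0.0004591). It was called at 1 of 3 probe sets, the brightest. There it fell in XX cells too (-2.56, limma adjusted p = 0.01491), and the difference between the sexes was not called. Interstitial markers had Ptch1 higher and Nr2f2 and Acta2 lower of 15, and coelomic epithelium markers had Krt18 higher and Igfbp5 lower of 11. Igfbp5, an insulin-like growth factor binding protein gene, read 10.38, 10.76 and 10.01 in XY E12.5 pools, against 12.75, 13.11 and 13.21 in XY E11.5 pools (-2.64 ± 0.20, adjusted p = 8.028e-05). The calls of Cd68, Acta2 and Krt18 ended under at least 3 omissions of 1 array.

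**Figure D5:**
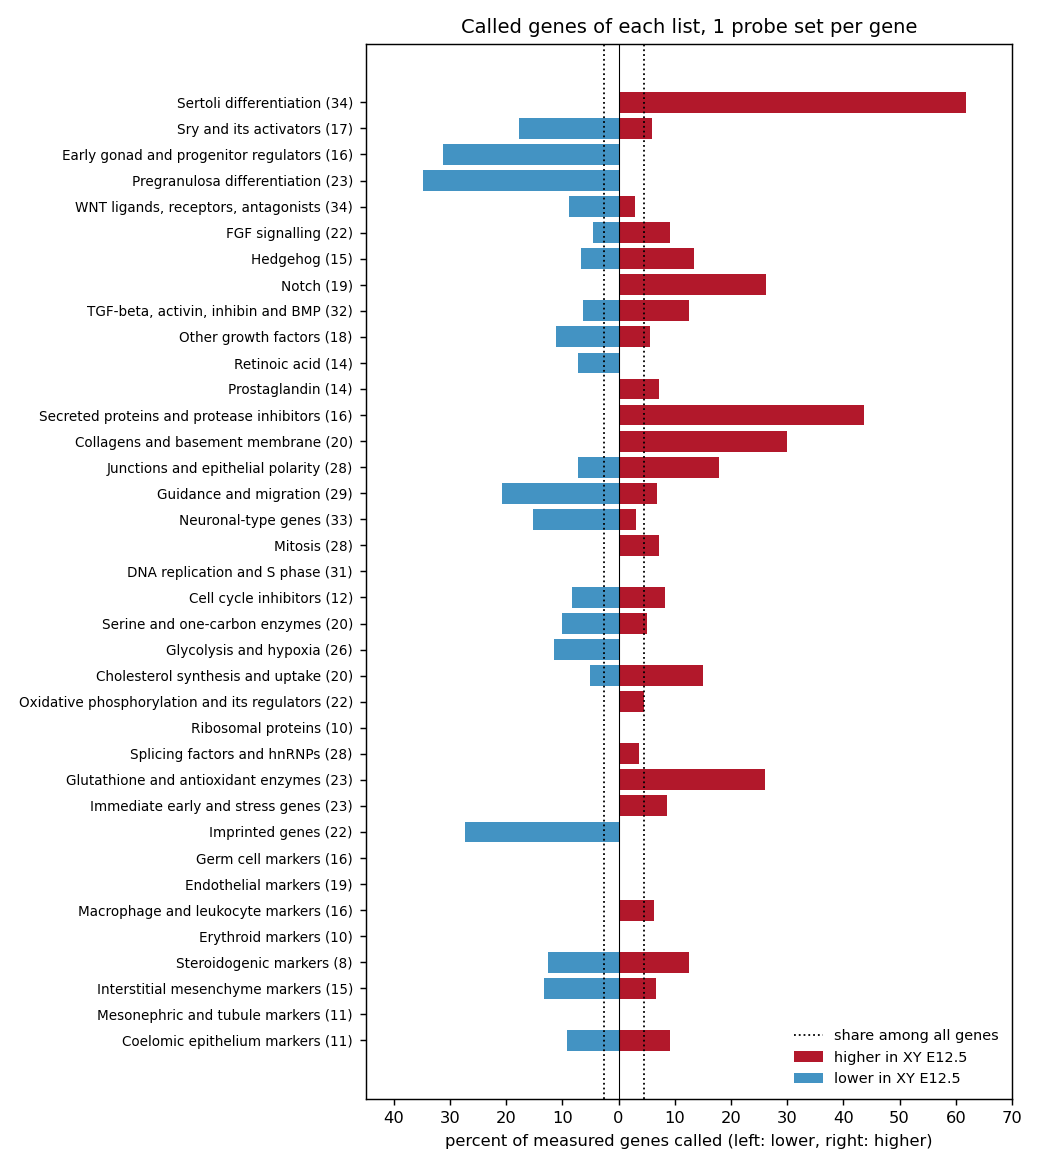
Percent of the measured genes of each of 37 lists called higher (red, right) or lower (blue, left) in XY E12.5 cells, with the number measured in brackets and dotted lines at the shares among all genes (4.47% higher and 2.54% lower). Sertoli, secreted protein, collagen, Notch and glutathione genes reach furthest to the right, and pregranulosa, early gonad and imprinted genes furthest to the left.

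The pools of E11.5 differed from one another in the genes that changed. Among the 1408 probe sets higher in XY E12.5 cells, XY E11.5 pool 3 was the lowest of its group in 56.5%, beside 36.9% of all probe sets. Among the 1318 lower ones, pool 2 was the lowest in 48.1%, beside 24.8%, and pool 3 the highest in 46.9%, beside 30.2%. Arrays of XY E12.5 correlated at 0.972 or more over all probe sets, those of XY E11.5 at 0.961 or more, and arrays of different days at 0.906 to 0.954. What the pools differ in, such as the exact age of the embryos, is not given in the labels. Leaving out XY E11.5 pools 1 and 3 together left 432 calls, with 11 Sertoli genes called higher and 2 pregranulosa genes lower. That fit has 1 XY E11.5 array, whose spread is assumed to be that of the other groups. Ptgds, Defb19, Dhh, Lhx9, Emx2, Gjb2, Serpina5, Slitrk1, Dclk1, Zim1 and Cdkn1c were called under every omission listed here.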

How the data were processed

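The authors deposited 1 log2 value per probe set and array, and the log base was inferred from the values, which reach 14.45. How signals were summarised and normalised is not given in the sources used here. Of 45037 probe sets, 798 were blank on every array and 1 on some, which left 44238. Names came from the platform annotation, updated by Entrez ID to RefSeq on GRCm38.p6 (34126 matched). They gave 1 symbol to 34328 probe sets, several to 850 and none to 9060. A limma 3.58.1 model (R 4.3.3) of 4 groups over all 12 arrays had 8 residual and 2.11 prior degrees of freedom, and p-values were adjusted by Benjamini-Hochberg over all probe sets. The number of arrays limits the precision. Figures used Python 3.11.15 and matplotlib 3.10.9. The arrays compared were chosen by their labels, and the 37 gene lists were chosen with earlier results of these data known. The text names the 12 genes with the largest called changes each way. These were taken from probe sets of 1 gene whose days did not overlap, without clone names or Y-linked genes. Named without the overlap rule were up to 3 called genes per list and direction, chosen regulators, and genes with called probe sets of both directions. Alternatives were filtering, normalisation, the prior, weights, a pool block, a 2-fold minimum, the probe sets per gene and omitted arrays. The fit was tested on simulated data.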

Additional observations from a re-analysis of the deposited data

Results flagged for a closer look

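At 57 of 134 named probe sets the change from E11.5 to E12.5 differed between XY and XX cells in limma's test of that difference. Of these, 30 had a more positive and 27 a more negative change in XY. Over all probe sets the share was 774 of 44238 (1.75%). The XY change was called at 125 of the 134, most named for that, and the test shares the XY arrays. The count and its split thus follow from how the genes were named. Values are the XY day change minus the XX day change in log2 units. Among genes of Sertoli cells and their secreted products the difference was 3.55 and 5.10 at the probe sets of Ptgds, 4.39 for Defb19, 4.24 for Dhh, 2.71 for Sox8, 2.32 for Cst9, 2.64 for Mybl1, 2.24 for Hsd17b1, 4.66 for Serpina5, 4.56 for Col9a3 and 1.88 for Col9a2. Sry stood at -1.57, but XX cells lack the Y chromosome that carries it. That value is therefore no comparison of Sry between the sexes and adds nothing to its fall within XY cells. Among genes of early gonads and pregranulosa cells it was -3.86 for Lhx9, -3.00 for Emx2, -2.29 for Nr0b1, -5.07 for Fst, -3.62 for Rspo1, -2.71 for Foxl2, -2.40 for Bmp2 and -2.92 for Msx1. Signalling genes stood at 3.33 for Jag1, 2.80 for Hes5, 2.47 for Hey2, 2.14 for Ptch1, -2.27 for Fgfr2, -2.42 for Wnt5b, -2.26 for Dhrs3 and 5.12 for Erbb3. Genes of guidance or of neuronal type gave -6.34 for Slitrk1, -5.17 for Dclk1, -5.25 for Sphkap, -4.02 for Sema3a, 5.93 for Pak3 and 4.74 for Rtn4rl1. Junction and matrix genes gave 4.07 for Gjb2 and 1.44 for Cdh4. Metabolic and antioxidant genes gave -3.27 for Slc1a4, -1.47 for Mtr, -3.16 for Adm, -3.63 for Ndrg1, 3.34 for Gstm6, 2.05 for Gstm7, 2.39 for Gpx3, 1.33 for Ebp and 4.60 for Slc38a5. Imprinted genes gave -3.67 for Zim1 and -2.18 for Cdkn1c, and the mitotic kinases 2.75 for Aurka and 3.36 for Nek2. The others were -2.78 for Acta2, -4.26 for Calb1, -5.18 for Cd244a, -2.15 for Igfbp5, 3.53 for Kazald1, 1.77 for Luc7l3, 4.72 for Rerg and -5.32 for Vav3. Without at least 1 array the difference was no longer called for Acta2, Aurka, Bmp2, Calb1, Cdh4, Ebp, Gpx3, Gstm7, Hey2, Hsd17b1, Jag1, Luc7l3, Msx1, Mtr, Nek2, Pak3, Ptch1 and Sox8, and it was called under every such omission at the other 39 probe sets.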

How the results depend on the processing

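The count of 2726 probe sets called between the days ranged from 1277 to 3077 when 1 array was left out, and the count of 774 that differed between the sexes ranged from 403 to 1273. With 1 probe set per gene, the brightest, 1430 were called, with probe sets averaged within a gene 1605, both of which test fewer features, and without XY E11.5 pools 1 and 3, an omission chosen after seeing the data, 432. The third of these leaves 1 XY E11.5 array. Fitted to the 6 XY arrays alone, the days gave 1864 calls, and 30 named probe sets lost theirs, among them those of Amh, Gdnf, Hey2, Igf1, Nr0b1, Rb1 and Rspo1. The test between the sexes could not be fitted to those arrays. With the pool number as a block, 2587 probe sets were called between the days and 600 between the sexes. Same-numbered pools of the 2 days correlated at 0.235, 0.075 and -0.069 in XY and 0.065, 0.153 and -0.104 in XX in their deviations from the group means, so the numbers were not taken as pairs. Of 125 called named probe sets, 85 were called under every omission of 1 array and 40 were not under at least 1. The sign turned at named probe sets where another value stood for the gene. In several of these the other value was near 0, which is an absent change and not an opposite one. With the brightest, the value was 0.0552 for Rbm5, 0.31 for Atrx, 0.0352 for Wnk1, 0.16 for Akap9, 0.40 for Tgs1, 2.04 for Diaph2, 0.42 for Wdr26, 0.83 for Golm2, 0.0893 for Prrc2c, 0.70 for Phf20l1, 2.13 for Hook1, 0.56 for Tbc1d20, -0.11 for Luc7l3 and -0.27 for Xrn2. With the mean it was -0.72 for Luc7l2, -0.72 for Tgs1, -0.30 for Diaph2, -0.0182 for Wdr26, -1.30 for Golm2, -1.15 for Prrc2c, 0.0255 for Phf20l1, -0.11 for Hook1, 0.0003 for Tbc1d20, -0.50 for Luc7l3 and -0.98 for Xrn2. The probe sets of a gene differ in these cases, and why they do was not tested. Signal near that of probe sets without a target limits folds of dim genes to bounds.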
